A study of Mus musculus with 18 samples.

Results

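RAS proteins are small GTPases that pass signals from growth factor receptors to the RAF, MEK and ERK kinases, and active ERK raises the transcription of genes whose products damp the same pathway. Hras and Nras encode RAS proteins. Dusp4, Dusp5 and Dusp6 encode dual-specificity phosphatases that remove phosphate from ERK, with Dusp4 and Dusp5 in the nucleus and Dusp6 in the cytoplasm. Spry1, Spry2 and Spry4 encode Sprouty proteins, which act between receptors and RAF, and Spred1 encodes an adaptor that brings neurofibromin, a GTPase-activating protein, to RAS at the membrane. In mouse skin, Hras is the RAS gene classically mutated in chemically induced papillomas. The study that produced these data describes the Hras mutations of that chemical model as rare in its ultraviolet-driven Hairless mice.

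These 9 genes were followed here as the entries of the deposited table that carry their symbols, and all 9 were present among 14521 named genes. RNA was sequenced from 6 SKH-1E mice, a hairless strain without a working Hairless gene. All were female littermates exposed chronically to ultraviolet light, according to the study's methods. Each animal (numbers 2, 3, 7, 8, 9 and 10 in the sample titles) gave 3 samples: chronically irradiated skin without a lesion (CHR), a benign epidermal outgrowth or papilloma (PAP), and an invasive squamous cell carcinoma of the skin (SCC), so that n = 6 in each of 3 groups and 18 libraries were read. No unirradiated skin was analysed here, and every group carries the irradiation. Values are normalised read counts, that is, reads per gene recovered from the deposited scores and divided by the size factor of the library. The libraries held 15.4 to 20.98 M recovered reads (median 18.9 M), and all 18 entered the same model with the mouse as a term.

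Tissue composition differed between the groups. Of 12 skeletal muscle markers, 12 were lower in PAP than in CHR, with summed counts of 392800 to 590000 in CHR, 307.2 to 29570 in PAP and 412.6 to 198600 in SCC. Macrophage markers were lower in PAP for 5 of 5 genes (summed 20840 to 33030 in CHR, 1095 to 3939 in PAP and 2648 to 30190 in SCC), and dermal fibroblast markers for 6 of 7 (137900 to 306400, 4782 to 160800 and 17220 to 496300). T cell markers were lower for 6 of 6 (summed 772.2 to 1829 in CHR and 132.4 to 439.5 in PAP), adipocyte markers for 6 of 7 (6377 to 16980 and 1524 to 12800) and sebaceous gland markers for 6 of 6 (45220 to 148200 and 893.2 to 6223), whereas the endothelial list had 1 gene higher and 4 lower. Keratinocyte markers, which define the tissue, were abundant in every library (173900 to 982800 summed), with 6 of 10 higher and 1 lower in PAP. The carcinoma of mouse 10 had the lowest muscle, fibroblast and macrophage sums of the 6 carcinomas. In such bulk tissue, fewer cells of a type and less RNA per cell cannot be told apart.

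The promoter sequences of the called genes are shown because these genes moved in the same direction in every mouse. Windows from RefSeq for GRCm38.p6 were read for 7 of 9 genes, from 250 bases before to 50 bases after the start (300 bases). None was read for Dusp4 or Spry4, so the counts of matches leave both genes out. The start is that of RefSeq, and for Spred1 and Dusp5 it differs from the GENCODE gene start given further on, with the Spred1 window ending before the latter. The windows shown are Hras at chr7:141193955-141194254 on the minus strand, Nras at chr3:103058035-103058334, Spry1 at chr3:37639697-37639996 and Spred1 at chr2:117120821-117121120, the last 3 on the plus strand. Capitals mark matches, on either strand, to the SP1 box GGGCGG, the CCAAT box and the ETS core CCGGAA.
Hras: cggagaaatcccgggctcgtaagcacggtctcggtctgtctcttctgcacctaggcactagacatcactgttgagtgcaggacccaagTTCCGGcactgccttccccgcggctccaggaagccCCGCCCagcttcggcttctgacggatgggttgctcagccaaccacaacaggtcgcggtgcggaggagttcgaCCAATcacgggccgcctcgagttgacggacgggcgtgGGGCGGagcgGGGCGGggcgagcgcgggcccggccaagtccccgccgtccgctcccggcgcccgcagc
Nras: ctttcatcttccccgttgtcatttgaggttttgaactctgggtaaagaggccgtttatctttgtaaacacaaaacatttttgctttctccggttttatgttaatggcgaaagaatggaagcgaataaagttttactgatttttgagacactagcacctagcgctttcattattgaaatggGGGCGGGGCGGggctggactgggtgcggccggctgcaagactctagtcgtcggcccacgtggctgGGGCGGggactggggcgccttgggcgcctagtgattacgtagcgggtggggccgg
Spry1: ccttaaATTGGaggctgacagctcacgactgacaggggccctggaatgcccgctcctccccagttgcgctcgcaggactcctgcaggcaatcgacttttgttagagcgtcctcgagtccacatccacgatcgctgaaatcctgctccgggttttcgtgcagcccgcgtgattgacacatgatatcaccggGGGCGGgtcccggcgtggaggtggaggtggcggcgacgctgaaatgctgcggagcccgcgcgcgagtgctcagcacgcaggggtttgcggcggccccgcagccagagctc
Spred1: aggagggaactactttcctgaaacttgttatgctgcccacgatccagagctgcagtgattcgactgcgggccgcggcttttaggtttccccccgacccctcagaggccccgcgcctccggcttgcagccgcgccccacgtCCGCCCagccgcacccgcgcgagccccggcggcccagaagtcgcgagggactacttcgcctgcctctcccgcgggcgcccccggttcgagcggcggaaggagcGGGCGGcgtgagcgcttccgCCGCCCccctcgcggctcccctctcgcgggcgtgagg

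The SP1 box was found in 5 of 7 windows (Hras, Nras, Spry1, Spred1 and Dusp5), against 35.7% of 32851 mouse promoters of the same length. A CCAAT box was found in 3 (Hras, Spry1 and Dusp6), against 37.4%. Hras and Spry2 held an ETS core, the letters read by ETS factors such as the ERK substrate Elk1, as did 14.9% of all promoters. Hras had its ETS core 162 bases before the start and 3 SP1 boxes, at 127, 18 and 8 bases before it. Spred1 had 3 SP1 boxes and no CCAAT or ETS match, and Spry1 had 1 SP1 box 60 bases before the start. Dusp5 held a pair of CArG boxes, the element bound by serum response factor, at 82 and 72 bases before the start, and 1.63% of promoters held any. None of the 7 windows held the AP-1 site TGANTCA, found in 7.81% of promoters, or the cyclic AMP element TGACGTCA, found in 1.79%. Its half-site TGACG occurred in Hras and Dusp5 and in 20.8% of promoters. These matches describe letters in the window and were not tested against expression.

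**Figure D1:**
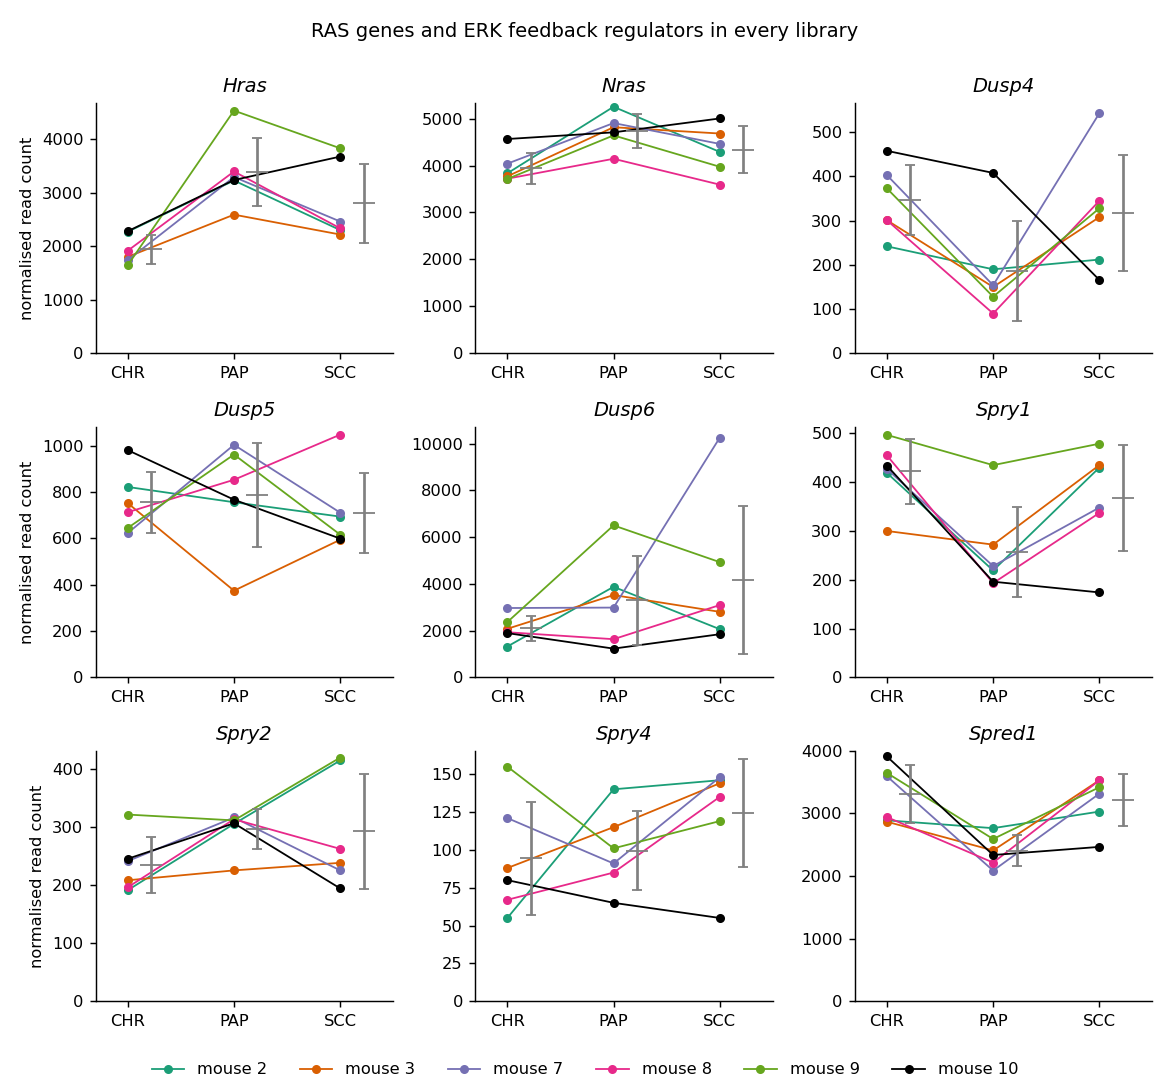
Normalised read count (linear axis from 0) of the 9 genes in CHR, PAP and SCC, with 1 coloured line per mouse and, in grey, the mean with the SD over 6 mice. Hras and Nras rise from CHR to PAP in all 6 mice, Dusp4, Spry1 and Spred1 fall in all 6, and the Dusp6 value of 10251 in the carcinoma of mouse 7 stands apart.

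In papillomas the RAS genes were higher than in irradiated skin while part of the feedback machinery was lower. Of the 9 genes, 2 rose (Hras and Nras), 3 fell (Dusp4, Spry1 and Spred1) and 4 did not pass the test at an adjusted p under 0.05. Over all 14521 genes, 52.6% passed in PAP vs CHR (23.3% higher and 29.3% lower), so that 5 of 9 is close to the background. Of the called genes, 44.4% were higher. When every library was centred to the same median, the median fold change of all genes moved up by 0.14 (log2) and 57.7% of the calls were higher. Fold changes below come from limma on log2(deposited value + 1), which understates changes of weakly expressed genes, with Benjamini-Hochberg adjustment over all genes.

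Hras (ENSMUSG00000025499.18) lies on chromosome 7 of GRCm38 at 141189105 to 141194005, minus strand. Its normalised count was 1645 to 2278 in CHR (median 1857), 2587 to 4528 in PAP (median 3261) and 2216 to 3825 in SCC (median 2396). The lowest papilloma lay above the highest irradiated skin, so the 2 groups did not overlap, whereas carcinomas overlapped both. Hras was 1.70-fold higher in PAP than in CHR (log2 0.77 ± 0.14 SE, limma adjusted p = 0.000622), higher in 6 of 6 mice. The within-mouse difference was largest in mouse 9, at 1.46 (log2 of normalised count), and 0.51 to 0.92 in the others.

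Nras (chromosome 3, 103058285 to 103067914, plus strand) varied less between mice than Hras. Its count was 3714 to 4565 in CHR (median 3802), 4144 to 5252 in PAP (median 4762) and 3593 to 5003 in SCC (median 4376). The 3 groups overlapped, and the coefficient of variation over mice was 8.34% (CHR), 7.66% (PAP) and 11.6% (SCC), against 14.0%, 18.7% and 26.4% for Hras. Nras was 1.20-fold higher in PAP than in CHR (log2 0.26 ± 0.08 SE, limma adjusted p = 0.0179) and higher in 6 of 6 mice. Without mouse 2, 3 or 7 the adjusted p was 0.06, 0.0545 and 0.0565, and the call was lost. The ratio of Hras to Nras was higher in PAP than in CHR in 6 of 6 mice, by 0.52 ± 0.39 (log2, SD). The exact sign-flip permutation test over 6 mice gave p = 0.0312, the smallest it can give, and 0.164 after adjustment over the 21 ratio tests made.

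Among the phosphatases, Dusp4 fell and Dusp5 and Dusp6 did not pass the test. Dusp4 (chromosome 8, 34807297 to 34819894, plus strand) counted 242 to 458 in CHR (median 337), 90 to 408 in PAP (median 152) and 166 to 543 in SCC (median 318). The papillomas of the other mice lay at 190 or below, under every irradiated skin, whereas that of mouse 10, at 408, lay among the skin samples. Dusp4 was 1.71-fold lower in PAP than in CHR (log2 -0.78 ± 0.25 SE, limma adjusted p = 0.0207), lower in 6 of 6 mice, with within-mouse differences from -1.72 in mouse 8 to -0.17 in mouse 10. The call was lost without mouse 3, 7, 8 or 9 (adjusted p 0.0533, 0.0537, 0.0679 and 0.0706).

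Dusp5 (chromosome 19, 53529109 to 53542431, plus strand) counted 623 to 981 in CHR, 374 to 1004 in PAP and 594 to 1048 in SCC, with medians of 732, 810 and 655. The groups overlapped throughout. The PAP vs CHR difference was log2 0.01 (95% interval -0.39 to 0.41, limma adjusted p = 0.963), with 3 mice higher and 3 lower. Dusp5 overlaps an antisense gene at its start, and the strand setting of the counting was not given in the sources used here, so reads of the pair cannot be told apart.

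Dusp6 (chromosome 10, 99263231 to 99267489, plus strand) had the widest spread of the 9 genes among carcinomas. It counted 1316 to 2963 in CHR (median 2000), 1226 to 6498 in PAP (median 3249) and 1842 to 10251 in SCC (median 2944), and its coefficient of variation was 26.3%, 57.4% and 76.4%. The highest papilloma came from mouse 9 and the highest carcinoma from mouse 7. That carcinoma also had the highest macrophage sum of the 6, 30190 against 2648 to 11500 in the others, and the lowest keratinocyte sum, 173900. The part of its composition in the Dusp6 value was not tested. In PAP vs CHR the difference was log2 0.48 ± 0.31 SE (limma adjusted p = 0.213), with 4 mice higher and 2 lower.

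Of the Sprouty genes, Spry1 fell in papillomas and its relatives did not pass the test. Spry1 (chromosome 3, 37639947 to 37644598, plus strand) counted 300 to 497 in CHR (median 430), 193 to 435 in PAP (median 223) and 174 to 479 in SCC (median 389). Papillomas of 5 mice lay at 272 or below, under every irradiated skin, and that of mouse 9, at 435, lay among the skin samples. Spry1 was 1.53-fold lower in PAP (log2 -0.61 ± 0.16 SE, limma adjusted p = 0.00674) in 6 of 6 mice. It overlaps the unclassified transcript Gm42922 on the opposite strand, with the same limit of strand.

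Spry2 (chromosome 14, 105891947 to 105896819, minus strand) counted 191 to 321 in CHR, 225 to 316 in PAP and 194 to 419 in SCC, with medians of 224, 308 and 250. All papillomas but that of mouse 3 lay between 305 and 316. Of the irradiated skins only that of mouse 9, at 321, reached this level, and the others lay at 191 to 245. Spry2 was at log2 0.28 ± 0.14 SE in PAP vs CHR (limma adjusted p = 0.113), higher in 5 of 6 mice, and among the alternatives run passed only when libraries were centred (log2 0.42, adjusted p = 0.0204). The ratio of Spry1 to Spry2 was lower in PAP than in CHR in 6 of 6 mice, by log2 -1.11 ± 0.74 (SD, exact permutation p = 0.0312, adjusted 0.164).

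Spry4 (chromosome 18, 38586247 to 38601415, minus strand) was the weakest of the 9 genes. It counted 55 to 155 in CHR, 65 to 140 in PAP and 55 to 148 in SCC, with medians of 84, 96 and 140. The carcinomas of mice 2, 3, 7, 8 and 9 lay at 119 to 148 and that of mouse 10 at 55, inside the range of the skin samples. The difference of PAP from CHR was log2 0.07 ± 0.16 SE (limma adjusted p = 0.740), with 3 mice higher and 3 lower.

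Spred1 (chromosome 2, 117121374 to 117182279, plus strand) counted 2868 to 3910 in CHR (median 3268), 2087 to 2765 in PAP (median 2373) and 2466 to 3530 in SCC (median 3368). Every papilloma lay below every irradiated skin. Spred1 was 1.36-fold lower in PAP (log2 -0.45 ± 0.13 SE, limma adjusted p = 0.00937) in 6 of 6 mice, with within-mouse differences from -0.78 in mouse 7 to -0.06 in mouse 2 (log2 of normalised count).

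Dusp4, Spry1 and Spred1 were all lower in the papilloma than in the irradiated skin of the same mouse in 6 of 6 mice. The ranges of the muscle, macrophage, T cell and sebaceous sums given above were lower in PAP than in CHR without overlap. So were the endothelial sums (5808 to 8229 in CHR and 3355 to 5741 in PAP). Those of fibroblast and adipocyte sums overlapped. Of the adipocyte markers only Fabp4 overlapped (2445 to 5354 in CHR and 1444 to 12770 in PAP). The other 6 stood apart, such as Adipoq (515.3 to 1682 and 0 to 64.43). The part of these cell types in the 3 differences was not tested. Keratinocyte markers were higher in PAP for 6 of 10 genes and lower for 1. The part of tissue composition in the higher Hras and Nras of papillomas was not tested either.

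**Figure D2:**
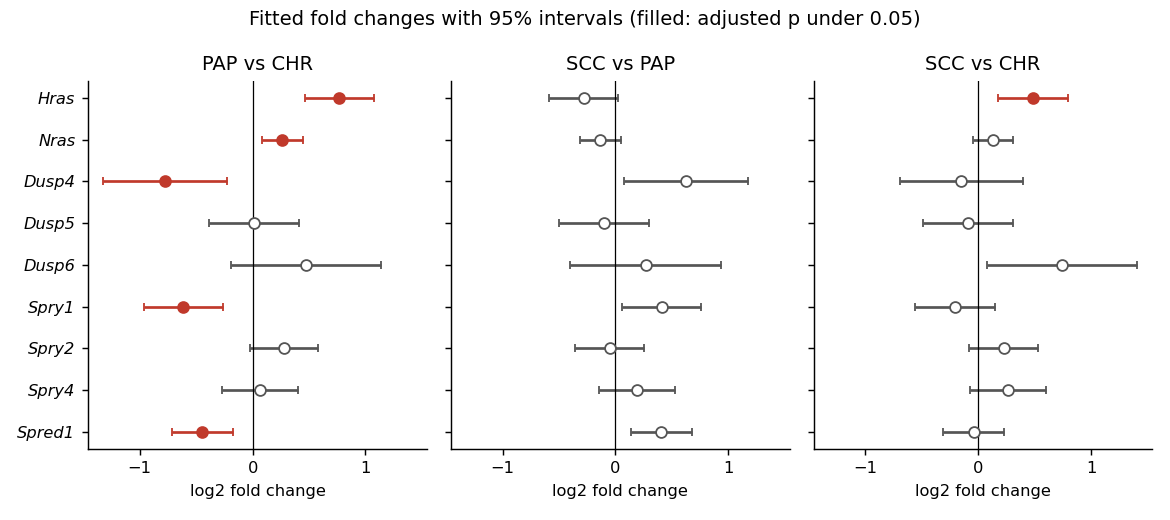
Log2 fold change (x axis) of each gene in PAP vs CHR, SCC vs PAP and SCC vs CHR, from the limma fit, with 95% intervals. Filled red points have an adjusted p under 0.05. In PAP vs CHR 5 genes are filled, with Hras at 0.77 and Dusp4 at -0.78 farthest from 0, in SCC vs PAP none is, and in SCC vs CHR only Hras, at 0.49, is.

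Between papilloma and carcinoma 0 of 9 genes passed the limma test, against 9.85% of all genes (8.75% higher and 1.10% lower). At an unadjusted p under 0.05 there were 3 of the 9 (Dusp4, Spry1 and Spred1) and 3570 of all 14521 genes. limma-voom on recovered reads called 1, Spred1. The background itself was unstable, since 0 genes were called without mouse 7 or without mouse 8 (2450 and 2594 at an unadjusted p under 0.05), 471 without mouse 3 and 454 without the carcinoma of mouse 7. The 3 genes that were lower in papillomas had higher means in carcinomas. Spred1 was at log2 0.41 ± 0.13 SE (adjusted p = 0.0587), higher in 6 of 6 mice, and reached adjusted p = 0.0484 with limma-voom and 0.0450 with no replicate block for the mouse. Dusp4 was at 0.63 ± 0.25 SE (adjusted p = 0.143) and Spry1 at 0.41 ± 0.16 SE (adjusted p = 0.137), each higher in 5 of 6 mice.

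The exception was mouse 10, whose carcinoma had Dusp4 at 166 and Spry1 at 174, against 408 and 196 in its papilloma. Its carcinoma also had the lowest Spred1 (2466), Spry2 (194) and Spry4 (55) of the group. In a fit without this 1 library, added after the data were seen, 3 genes passed the limma test. They were Dusp4 at log2 0.89 (adjusted p = 0.00835), Spry1 at 0.55 (adjusted p = 0.0244) and Spred1 at 0.50 (adjusted p = 0.0148). Since that fit was chosen with these values known, its calls are not an independent test. Leaving out all 3 libraries of mouse 10 also gave 3 calls, at 0.95, 0.52 and 0.47 (adjusted p = 0.00605, 0.0381 and 0.0225). Calls over all 14521 genes rose too, from 1430 to 2084 without that carcinoma and to 1995 without mouse 10. The muscle marker sum in that carcinoma was 412.6, against a group median of 110200, and its part was not tested.

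**Figure D3:**
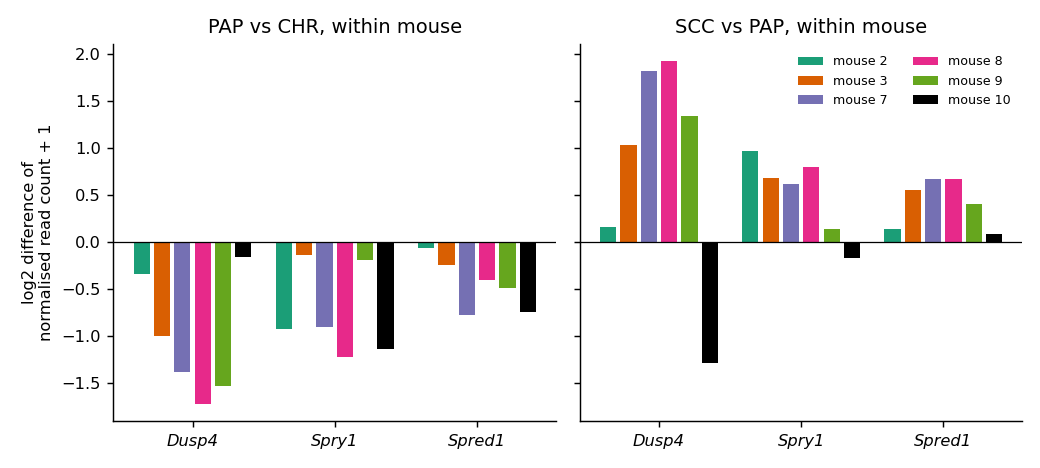
Within-mouse difference (log2 of normalised read count + 1) of Dusp4, Spry1 and Spred1, with 1 bar per mouse, for PAP vs CHR on the left and SCC vs PAP on the right. All 18 bars on the left are below 0. On the right the bars are above 0 except for Dusp4 (-1.29) and Spry1 (-0.17) in mouse 10.

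The RAS genes had lower means in carcinomas than in papillomas, Hras at log2 -0.28 ± 0.14 SE (limma adjusted p = 0.245) and Nras at -0.13 ± 0.08 SE (adjusted p = 0.361). Each was lower in 5 of 6 mice and higher in mouse 10. For Dusp5, Dusp6, Spry2 and Spry4 the log2 differences were -0.10, 0.27, -0.05 and 0.19 (adjusted p 0.784, 0.648, 0.863 and 0.492). Without the carcinoma of mouse 7, Dusp6 was at 0.02.

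Carcinomas were compared with irradiated skin in the same fit, in which 38.4% of all genes passed (15.8% higher and 22.7% lower). Of the 9 genes, only Hras passed. It was 1.4-fold higher (log2 0.49 ± 0.14 SE, limma adjusted p = 0.0167) in 6 of 6 mice, with 0.02 in mouse 2 and 1.22 in mouse 9, and without mouse 9 the adjusted p was 0.0518. Over all genes 41.0% of these calls were higher, and 52.5% when libraries were centred. Dusp6 had the largest fold change, log2 0.74 ± 0.31 SE (adjusted p = 0.0724), with 5 mice higher and 1 lower. It passed at adjusted p = 0.0279 when only the 2 groups were fitted and at 0.0414 when libraries were centred. It did not pass with limma-voom (adjusted p = 0.0701) or with no replicate block (0.153). In the main fit 2 of the 9 genes, Hras and Dusp6, had an unadjusted p under 0.05, as did 6953 of all 14521 genes. Without the carcinoma of mouse 7 the counts were 1 of the 9 and 6754 of all genes.

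Spred1, Dusp4 and Spry1 were at log2 -0.04 (95% interval -0.31 to 0.23), -0.15 (-0.70 to 0.40) and -0.20 (-0.56 to 0.15) in SCC vs CHR. Nras was at 0.13 (-0.05 to 0.31), Spry2 at 0.23 (-0.08 to 0.53), Spry4 at 0.26 (-0.08 to 0.60) and Dusp5 at -0.09 (-0.49 to 0.31). The ratio of Dusp4 to Dusp6 was lower in SCC than in CHR in 6 of 6 mice, by log2 -0.96 ± 0.45 (SD), as was that of Dusp5 to Dusp6, by -0.87 ± 0.49 (each exact permutation p = 0.0312, adjusted 0.164).

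The study's progression model, a mixed model with the mouse as random effect and an unadjusted p, names a gene early when both lesions differ from CHR in the same direction. Hras and Nras were early and the other 7 genes had no class. Without mouse 2, 3, 7 or 9, and with adjusted p, Hras alone was early. Of all genes, 41.1% were early, 2.20% late and 0.523% stepwise. Dusp4, Spry1 and Spred1 did not pass in SCC vs CHR, which every class requires.

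Levels of different genes were set side by side per kilobase of exon, with all annotated exons of a gene merged. Which transcripts were expressed was not measured, so the order of genes depends on these lengths. By this measure Nras led in CHR with 739 normalised reads per kb, ahead of Dusp6 (667), Hras (520), Spred1 (488) and Dusp5 (306). Then came Spry1 (145), Dusp4 (126), Spry2 (112) and Spry4 (19.8). Neighbours in this order overlapped except Spred1 and Dusp5, Dusp5 and Spry1, and Spry2 and Spry4. In PAP the order began with Dusp6 (1050), Hras (904) and Nras (890), whose ranges overlapped. Nras stood apart from the next gene, Spred1 (354), whereas Dusp6 (391 to 2070 per kb) overlapped it (308 to 408). In SCC it began with Dusp6 (1330), Nras (813) and Hras (750), and there Hras and Spred1 (474) stood apart. Spry2 (142 per kb in PAP and 140 in SCC) ranked above Spry1 (88.5 and 126) in both lesions, with overlapping ranges, whereas Spry1 ranked above Spry2 in CHR. Spry4 was last in all 3 groups, at 20.9 per kb in PAP and 26.2 in SCC.

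The other genes of the pathway were read from lists grouped by role, of which 85 of 86 genes were in the table. The lists were chosen with earlier results of these data known, so their counts are not independent of the data. In PAP vs CHR 21 were higher, 27 lower and 37 not called, with a list median of log2 0.05 against 0.00 over all genes. These counts are close to the background of 23.3% higher and 29.3% lower given above. In SCC vs PAP the counts were 6, 4 and 75 (background 9.85% called), and in SCC vs CHR 16, 24 and 45 (background 38.4%). The 10 calls in SCC vs PAP went to 0 without mouse 7 or mouse 8, 3 without mouse 3, 6 without mouse 2 and 1 without the carcinoma of mouse 7, with 17 pathway genes at an unadjusted p under 0.05 without either mouse 7 or mouse 8.

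The ERK-responsive transcripts outside the 9 genes were higher in papillomas for 7 of 11, with 1 lower and a list median of log2 1.15. Over all genes 23.3% were higher, but this list too was chosen with earlier results known. Fosl1, a subunit of AP-1, rose from a mean of 53.0 to 419 normalised reads (log2 2.06 ± 0.24 SE, limma adjusted p = 1.68e-05), and Phlda1 from 80.0 to 515 (log2 1.92, adjusted p = 3.62e-05). Etv1, an ETS factor, fell from 38.6 to 5.51 (log2 -0.84, adjusted p = 0.00015). In SCC vs CHR 7 of 11 were higher, against 15.8% of all genes, and none of the other 4 passed, while in SCC vs PAP Etv1 was higher and Epha4 (log2 -0.77, adjusted p = 0.0375) and Egr1 (-0.62, adjusted p = 0.0455) were lower. Dusp4, Spry1 and Spred1 fell in the same papillomas in which Fosl1 and Phlda1 rose in 6 of 6 mice.

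Relatives of the feedback genes moved in both directions. Of 7 further phosphatases 1 was called in PAP vs CHR, where 52.6% of all genes were called. The called gene was Dusp7, another ERK phosphatase, which rose from a mean of 1567 to 5417 (log2 1.74 ± 0.12 SE, limma adjusted p = 6.95e-07). It fell from PAP to SCC (log2 -0.47, adjusted p = 0.0314). Dusp9 (38.3 in CHR and 101.8 in PAP) had adjusted p = 0.0523, and passed with limma-voom (0.041) and with no replicate block (0.0363). In SCC vs CHR, where 38.4% of all genes were called, Dusp7 and Dusp9 were higher and Dusp16 lower. Spred2 (log2 0.60, adjusted p = 0.00122) and Spred3 (0.79, adjusted p = 0.0022) rose in PAP in 6 of 6 mice, opposite to Spred1. Lrig1 (-1.32, adjusted p = 0.00502) and Il17rd (-1.09, adjusted p = 0.000605), receptor-level inhibitors, fell in 6 of 6 mice.

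Upstream of RAF, Rras2 rose in PAP (log2 1.48 ± 0.19 SE, limma adjusted p = 3.25e-05) and Mras fell (-1.12, adjusted p = 0.000712). Of the 8 exchange factors 4 were called in PAP, near the 52.6% of all genes, and the 4 fell, led by Rasgrp4 (-1.75) and Rasgrf2 (-1.54). Of 10 GTPase-activating proteins 6 fell, led by Rasa4 (-1.76) and Rasal3 (-1.54), and Dab2ip rose (1.01), where 29.3% of all genes fell. Several of these genes are known from blood cells, and the macrophage and T cell sums were lower in PAP, as given above. The part of those cells was not tested. Among the adaptors Gab2 (-1.95) and Grb2 (-0.56) fell and Frs2 (0.31) and Ptpn11 (0.29) rose.

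Within the cascade, Map2k1 (MEK) rose by log2 0.69 ± 0.10 SE in PAP (limma adjusted p = 9.97e-05), while Mapk3 fell by 0.47 (adjusted p = 0.00109). Of 7 scaffolds 1 rose and 5 fell (Iqgap1 not with limma-voom, adjusted p = 0.0526), Mras and Ksr2 (-0.95, adjusted p = 0.000341) the most. Of 8 RAS processing enzymes Golga7 rose (0.37, adjusted p = 0.00934) and Zdhhc9 fell (-0.47, adjusted p = 0.0367). Their products form the complex that palmitoylates RAS. Of 11 ERK effectors and nuclear targets Elk3 (0.79) and Ets2 (0.71) rose and 4 fell, led by Rps6ka2 (-1.32) and Mknk1 (-1.02). Beside these counts, 52.6% of all genes were called in PAP vs CHR, 23.3% higher and 29.3% lower.

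**Figure D4:**
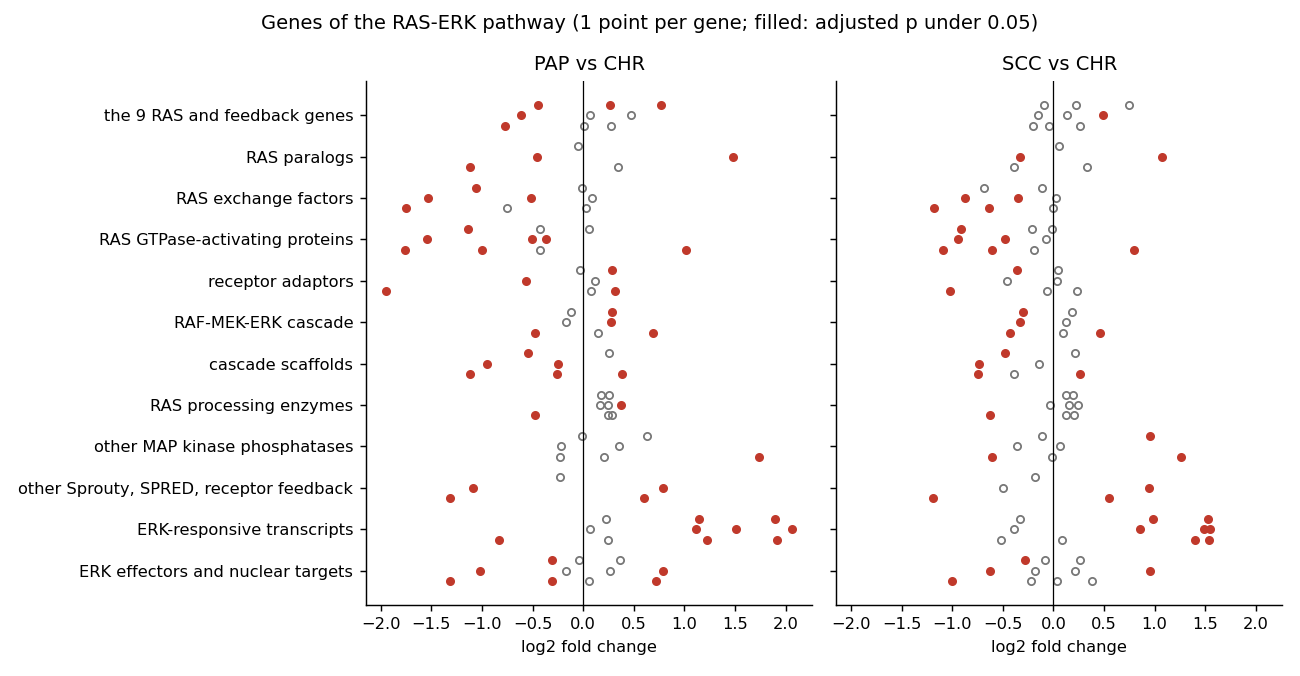
Log2 fold change (x axis) of the 9 genes and of the other pathway genes by role, with 1 point per gene, in PAP vs CHR (left) and SCC vs CHR (right). Filled points have an adjusted p under 0.05, and the vertical offset within a list only separates points. The ERK-responsive transcripts lie mostly to the right (7 of 11 filled and above 0 in each panel), and exchange factors and GTPase-activating proteins mostly to the left.

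By course, nearness to other genes was common for some of the 9, since 45.91% of the genes compared lay within a gap of 0.5 of Nras, 34.56% of Spry2, 19.79% of Spred1, 13.98% of Hras and 2.31% of Dusp4. The genes nearest to each of the 9, by the root mean square gap over 12 within-mouse log2 differences, were Ap1m2 (0.18) and Eif3g (0.18) for Hras, Luc7l and Pqbp1 for Nras, and Tmem198b (0.14) and Ilk (0.15) for Spred1. For Dusp4 they were Limd2 (0.27) and Accs (0.30), for Dusp5 Gde1 and Wbp1l, for Spry1 Palm2 and Sccpdh, for Spry2 Dvl3 and Atn1, and for Spry4 Rab23 and Ppp1r18. For Dusp6 the gaps were larger, with Il23a nearest at 0.51 and Phlda2 at 0.52.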

How the data were processed

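RNA was sequenced from CHR, PAP and SCC of 6 mice (18 libraries, 14521 named genes). The authors aligned reads to mm10 (GRCm38), counted them with HTSeq, scaled each library and transformed the counts with the variance-stabilizing function in DESeq2. What they deposited is a whole-number score per gene and library, and 0 reads have the score 39. This table is not of raw counts, so a count model was not the main test. The 21 of 14542 entries named by numbers (at most 0.236% of a library's deposited total) were left out. Strand setting, software versions and annotation release are not given in the sources used here.

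Reads were recovered by inverting the transformation (zero level 39.13, size factors 0.835 to 1.18). For 99.6% of values a whole read count, scaled and transformed again, gave back the deposited score exactly. The methods of the study also name a scaling of each batch to equal medians per gene. No batch label was used here, and the size factors alone gave back these scores, so no such scaling was seen in them. Coordinates and exon lengths are those of GENCODE M21. The main test was limma 3.58.1 (R 4.3.3) on log2(value + 1), all libraries, with group and mouse as terms, two-sided, Benjamini-Hochberg over 14521 genes, threshold 0.05. The mouse pairs the libraries because titles and methods put 3 samples in each animal. The correlation of same-mouse deviations from group means was -0.23 to 0.22 (CHR and PAP), -0.09 to 0.51 (CHR and SCC) and -0.25 to 0.39 (PAP and SCC). The mixed model was computed in closed form and checked against nlme 3.1.168 on 209 genes. Ratios of genes were tested by exact sign flips over 6 mice. The limma fit was tested on simulated data in which 200 of 14521 genes changed 2-fold in PAP. In PAP vs CHR it recovered 74.5% of them, and 8.59% of its calls were false, at a threshold of 0.05. It made 0 calls in the simulated SCC vs CHR comparison, in which no gene changed.

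The 9 genes and all lists were chosen with earlier results of these data known. All 9 genes are named, as are at most 2 genes per direction, list and comparison, and the 2 nearest genes by course among those with a mean of at least 50 normalised reads. Alternatives were the fit without the mouse, only the groups compared, a pseudocount of 10, recovered reads, limma-voom, other scalings, a filter at 50 reads and leaving out each mouse. Leaving out the carcinoma of mouse 10 or 7 was added after the data were seen.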

Additional observations from a re-analysis of the deposited data

Results flagged for a closer look

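Of 27 groups of 6 samples tested for a value far from the rest, 6 had one, and chance gives about 1 in 20. Dusp4 in PAP was highest in mouse 10 (408 normalised reads). Dusp5 in SCC was highest in mouse 8 (1048). Dusp6 in SCC was highest in mouse 7 (10251). Spry1 in PAP was highest in mouse 9 (435). Spry2 in PAP was lowest in mouse 3 (225). Spry4 in SCC was lowest in mouse 10 (55). The 6 values fell in 5 mice, and no library held more than 1.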

How the results depend on the processing

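Of 432 values of the 9 genes under alternatives, 397 kept their direction and side of the threshold, 11 gained and 8 lost the call, and 16 changed sign. Signs changed in PAP vs CHR for Dusp5 without mouse 7, 8 or 9 (-0.11, -0.033 and -0.091, range over mice left out -0.11 to 0.19) and Spry4 without mouse 2 (-0.078, range -0.078 to 0.16). In SCC vs PAP they changed for Dusp6 without mouse 7 (-0.030, range -0.030 to 0.50) and for Spry2 without mouse 7 or 10 (0.015, 0.039) or the carcinoma of mouse 10 or 7 (0.041, 0.012), with a range of -0.14 to 0.041. In SCC vs CHR they changed for Dusp4 without mouse 10 or its carcinoma (0.052, 0.12, range -0.28 to 0.12), Dusp5 without mouse 10 (0.019, range -0.21 to 0.019), and Spred1 with libraries centred (0.037), scaled to library totals (0.024), without mouse 10 (0.082) or its carcinoma (0.054). None of these 16 was called.

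Counts of calls in SCC vs PAP varied most. All genes gave 1430 calls, 810 with no replicate block, 0 in the fit of the 2 groups alone with the replicate block (2830 at an unadjusted p under 0.05), 454 without the carcinoma of mouse 7, 2084 without that of mouse 10 and 0 to 1995 leaving out each mouse (0 without mouse 7 or 8, with 2450 and 2594 at an unadjusted p under 0.05, and 471 without mouse 3). Of the 9 genes 0 were called, 1 with no replicate block, 1 with limma-voom and 3 without the carcinoma of mouse 10, with 0 to 3 leaving out each mouse. Of the 85 pathway genes 10 were called, 4 with no replicate block, 0 with the 2 groups alone, 1 without the carcinoma of mouse 7, 14 without that of mouse 10 and 0 to 10 leaving out each mouse (6 without mouse 2, 3 without mouse 3). In PAP vs CHR 3 to 5 of the 9 genes were called leaving out each mouse (3 without mouse 3 or 7). In SCC vs CHR 2 were called with the 2 groups alone and 2 with libraries centred, and 0 to 1 leaving out each mouse. In the progression model 2 genes had a class, 1 with adjusted p and 1 to 2 leaving out each mouse. The causes were not tested. With no replicate block no other call of the 9 genes changed.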
